A study of Mus musculus with 3 samples.

Results

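The genes described here are 10 enzymes of hepatocytes, the parenchymal cells of the liver, that mark opposite ends of the liver lobule: 7 pericentral genes (Cyp2e1, Cyp1a2, Cyp2c29, Cyp2c37, Cyp2a5, Glul and Oat) and 3 periportal genes (Cyp2f2, Hal and Sds). They were taken as a list of known zonated enzymes, and all 10 had a column among the 21550 genes of one mouse liver library and among the 22517 genes of the other. The assay was single-cell RNA sequencing on BD Rhapsody, a microwell platform, and each value is a number of unique molecules (UMIs) of a gene in a cell. The HFHC pool holds wild-type and Chil1-/- (also written Chi3l1-/-, a germline deletion) C57BL/6J mice kept for 16 weeks on HFHC, a diet rich in fat and cholesterol, mixed in 1 library with no genotype given for a cell here. The other sample is titled MCD, its table is named for wild type, the header of that table gives the library name APAP0h, which no label of this sample holds, and the study describes a normal chow diet for its comparison group. It is called the MCD-titled library below, and its table was assigned to it by elimination. The ages of the animals and the number pooled for each library are not given in the sources used here. With 1 library per group, diet, genotype, capture and library cannot be told apart, no test between libraries was possible, and intervals are exact 95% intervals that cover counting error only. The labels speak of parenchymal cells, whereas the study's methods describe non-parenchymal cells taken from the supernatant of a slow spin, so that the hepatocytes measured are those that such a preparation still held.

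Blood enters the lobule at the portal tract and leaves at the central vein, and hepatocytes along this path divide their work. Periportal hepatocytes make urea and glucose and break down amino acids. Pericentral hepatocytes oxidise drugs and toxins with cytochrome P450 enzymes and, in the rim around the central vein, capture leftover ammonia as glutamine. Wnt signals from the central vein keep much of the pericentral programme on, through β-catenin and the TCF/LEF family of DNA-binding factors.

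The files carry genes of GENCODE vM19 on the mouse build GRCm38, and gene positions here are those of GENCODE vM21 on the same build. Cyp2e1, which oxidises ethanol and paracetamol, lies at chr7:140763739-140774987 on the plus strand. Cyp1a2, which oxidises caffeine and aromatic amines, lies at chr9:57676937-57683703 on the minus strand. Cyp2c29 (chr19:39269405-39330713) and Cyp2c37 (chr19:39992424-40012243), plus-strand members of the Cyp2c family that oxidise fatty acids and drugs, are 662 kb apart. Cyp2a5, a coumarin hydroxylase (chr7:26835305-26843548, plus strand), and the periportal Cyp2f2, which oxidises naphthalene (chr7:27119909-27133660, plus strand), are neighbours of opposite zones only 276 kb apart. Glul, glutamine synthetase, lies at chr1:153899944-153909723 on the plus strand, and Oat, ornithine aminotransferase, at chr7:132557478-132576398 on the minus strand. Hal, histidine ammonia-lyase, lies at chr10:93488768-93519304 and Sds, serine dehydratase, at chr5:120476526-120483932, both on the plus strand. Because only the 3′ ends of transcripts are usually read in this assay, the last 600 bases of each member's longest protein-coding transcript were searched for 50-base windows that also occur in transcripts of another gene. Cyp2c37 shared 29.8% of its windows with Cyp2c50 and Cyp2c54, Cyp2a5 shared 15.8% with Cyp2a4 and a pseudogene, and Cyp2e1 shared 15.4% with unrelated genes. The other 7 members shared none.

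Promoter sequences of RefSeq (GRCm38.p6) were found for 9 of the 10 members, all but Sds, and the 250 bases before the RefSeq start were searched on both strands for CTTTGA, the core that TCF/LEF factors bind. It occurred in Cyp2e1, Cyp2c29, Cyp1a2 and also in the periportal Hal, 4 of 9 members, against 13.8% of all 32851 promoters. The RefSeq start can differ from the GENCODE start above: that of Cyp2c29 lies inside the GENCODE span. The windows of Cyp2e1, Cyp1a2, Cyp2a5 and Cyp2f2 overlap the first bases of their GENCODE spans. The 4 sequences below are shown because they belong to the genes whose opposite distribution across cells is described next, and they are written from 5′ to 3′ on the gene's strand with CTTTGA or its reverse complement in capitals.
Cyp2e1 (chr7:140763569-140763818, plus strand, match 135 bases before the start): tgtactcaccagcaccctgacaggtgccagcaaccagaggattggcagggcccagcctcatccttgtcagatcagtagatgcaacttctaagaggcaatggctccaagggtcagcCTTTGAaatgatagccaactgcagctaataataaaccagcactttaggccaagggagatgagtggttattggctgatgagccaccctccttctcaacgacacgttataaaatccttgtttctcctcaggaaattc
Cyp2c29 (chr19:39286835-39287084, plus strand, matches at 118 and 46 bases): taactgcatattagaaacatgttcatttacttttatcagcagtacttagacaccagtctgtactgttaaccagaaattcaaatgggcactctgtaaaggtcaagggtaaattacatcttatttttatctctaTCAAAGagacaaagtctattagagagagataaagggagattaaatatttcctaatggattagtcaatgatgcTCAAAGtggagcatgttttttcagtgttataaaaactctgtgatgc
Hal (chr10:93488518-93488767, plus strand, match at 199 bases): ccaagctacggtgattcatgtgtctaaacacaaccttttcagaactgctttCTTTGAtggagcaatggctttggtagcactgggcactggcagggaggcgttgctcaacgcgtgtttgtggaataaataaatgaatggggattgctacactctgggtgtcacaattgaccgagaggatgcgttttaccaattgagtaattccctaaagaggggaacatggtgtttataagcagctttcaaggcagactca
Cyp2f2 (chr7:27119705-27119954, plus strand, no match): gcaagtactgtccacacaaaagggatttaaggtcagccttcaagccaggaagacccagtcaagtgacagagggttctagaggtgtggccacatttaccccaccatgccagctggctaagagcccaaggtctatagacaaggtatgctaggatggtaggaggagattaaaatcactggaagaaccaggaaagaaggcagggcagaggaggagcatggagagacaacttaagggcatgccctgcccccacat
A match is a stretch of letters and not a shown binding site, and no match says only that these letters are not in this window. The letters AGTCCA, part of the site bound by the hepatocyte factor HNF4A, were found in 1 member, Cyp1a2, and in 11.5% of all promoters. In Cyp1a2 they fall on the first bases of the GENCODE span. The letters GCGTG, the core bound by the dioxin receptor, were found in 1 member, Hal, and in 28.2% of all promoters.

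Before filtering there were 30734 cells with 53720863 UMIs in the MCD-titled library and 21601 cells with 71981673 UMIs in the HFHC pool. Of these, 23346 and 19625 cells passed the study's limits of 200 to 4000 genes and at most 25% mitochondrial UMIs. The study's methods also removed captures of more than 1 cell and other poor cells, a step that was not repeated here, so the cells kept are not exactly those the study analysed. Hepatocytes were taken as cells with no UMI of Ptprc, the pan-leukocyte gene, in which Alb, Apoa1, Apoa2, Ttr and Fabp1 together made at least 5% of UMIs. This left 569 cells of the MCD-titled library (2.44% of kept cells, interval 2.24 to 2.64%) and 507 of the HFHC pool (2.58%, 2.37 to 2.82%). These cells were shallow, with medians of 630 and 758 UMIs. Hepatocyte genes outside the rule were present: Serpina1c, an antiprotease of plasma, had a UMI in 99.5% and 96.1% of them, and Trf, the iron carrier of plasma, in 77.2% and 61.7%. Of the 6 genes checked Apob was found least often, in 36.0% and 27.2%, and Hpx was found in 44.5% and 44.4%. Markers of 9 other liver cell types were low, at most 2.24 UMIs per 10000 (Kupffer markers in the MCD-titled library). The libraries shared 756 cell indices, none of them a hepatocyte by this rule in both.

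The members' levels differed with the share of UMIs in the 5 genes that chose the cells. In the MCD-titled library Cyp2e1 stood at 1007 CPM (UMIs of the gene per 1000000 UMIs) in cells with a share of 2 to 3%, at 322 CPM at 4 to 5%, just outside the rule, and at 141 CPM at 5 to 7%, just inside it. Over the same bands Glul stood at 1445, 449 and 128 CPM and Oat at 390, 93.4 and 24.2 CPM. Cyp2f2 ran the other way, with 427, 991 and 1378 CPM, while Hal (828, 1099 and 856 CPM) and Sds (191, 205 and 216 CPM) differed far less. In the HFHC pool Cyp2e1 stood at 1431, 1952 and 1983 CPM in these 3 bands, and was lower on either side of them, with 1064 CPM at 1 to 2%, 913 CPM at 7 to 10% and 259 CPM at 10 to 20%. Cyp2f2 in the pool stood at 213 CPM at 2 to 3% and at 1778 CPM at 10 to 20%. The median mitochondrial share moved with the bands too, from 1.01% at 2 to 3% to 5.78% at 7 to 10% in the MCD-titled library and from 0.339% to 1.26% in the pool, and its part in these values was not tested.

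**Figure D1:**
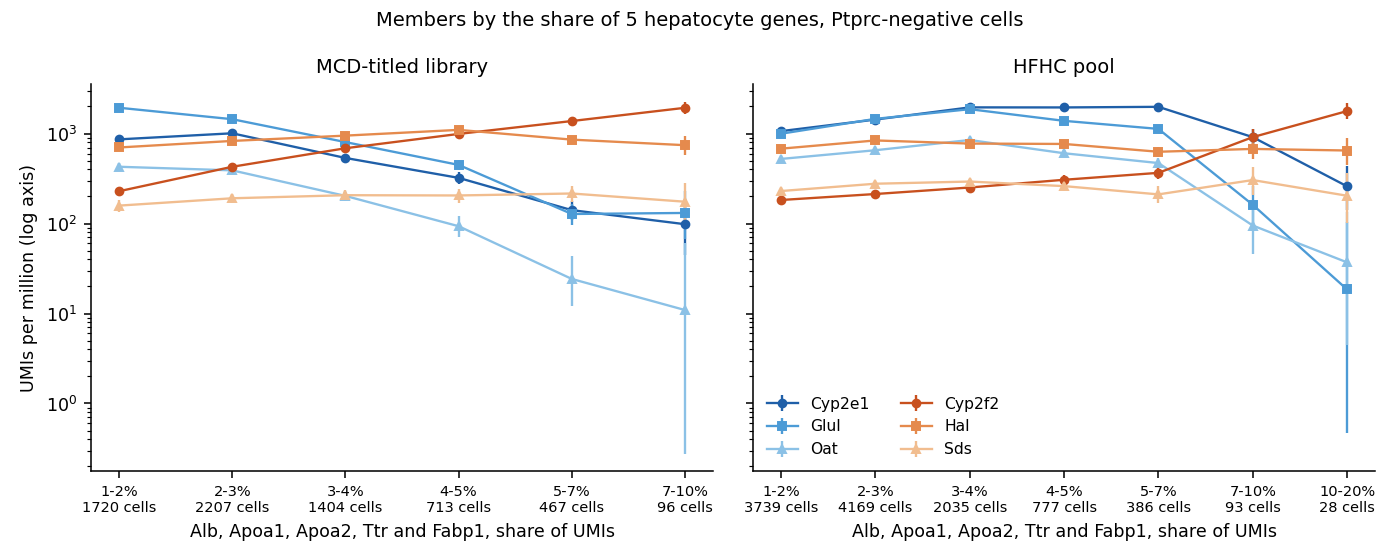
CPM, UMIs per 1000000, on a log axis, of 3 pericentral genes (blue) and 3 periportal genes (orange) in cells without a Ptprc UMI, by the share of UMIs that 5 hepatocyte genes take; bars are exact Poisson 95% intervals and bands of under 20 cells are left out. In the MCD-titled library Cyp2e1, Glul and Oat are lower in the 5 to 7% band than in the 2 to 3% band while Cyp2f2 is higher (1378 against 427), and in the HFHC pool the steep decline of the pericentral genes lies above 7%.

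A second, wider set is described beside the first: the same rule with a share of at least 2%, chosen after these values were seen. It held 4893 cells of the MCD-titled library (20.96% of kept cells, interval 20.4 to 21.5%) and 7488 of the HFHC pool (38.2%, 37.5 to 38.8%), with medians of 566 and 906.5 UMIs. Serpina1c had a UMI in 98.1% and 96.5% of these cells, Trf in 61.1% and 57.4%, Hpx in 22.9% and 27.9% and Apob in 19.4% and 19.1%. Of the other cell types, neutrophil markers were at 4.45 UMIs per 10000 in the MCD-titled library, Kupffer markers at 3.71 and endothelial markers at 2.62, against 0.208, 1.56 and 1.95 in the pool, and their part in the values was not tested. Of the shared cell indices, 42 were hepatocytes by the wider rule in both libraries.

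Within the wider set, pericentral enzymes met in the same cells more often than expected and genes of opposite zones less often, in both libraries. Most pairs of periportal enzymes were not past the limit for a call at 1000 UMIs. Every cell was thinned to 1000 UMIs, which left 1064 cells of the MCD-titled library and 3387 of the HFHC pool and set aside 3829 and 4101 shallower ones. The number of cells with a UMI of both genes of a pair was divided by the number expected if the genes were spread over cells independently, for pairs with at least 10 cells expected. A pair is called above with at least 5 cells for every 4 expected and below with at most 4 for every 5, and cells of 1 library are not replicates, so the ratios are descriptions.

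All 21 pericentral pairs were above expectation in the HFHC pool, with ratios of 1.70 to 5.73 and a median of 2.85. Over all 9476122 gene pairs with as many cells expected there, 8.01% were above and 11.6% below, and over the 3713335 of the MCD-titled library 7.37% and 10.9%. From the MCD-titled library 10 of these pairs had enough cells, and all 10 were above, with 2.35 to 4.004 and a median of 3.36. Cyp2e1 and Cyp2c29 shared 124 cells of the MCD-titled library where 33.7 were expected, and 593 cells of the pool where 285 were expected. Seen from Cyp2c29, 77.5% of the cells with its UMI also had one of Cyp2e1 in the MCD-titled library and 88.5% in the pool. Glul and Oat, which handle glutamate around the central vein, shared 43 cells against 11.6 expected and 380 against 151 expected. Cyp1a2 and Cyp2a5 shared 64 cells of the pool against 11.2 expected, and Cyp2e1 and Glul 503 against 296. A ratio cannot exceed the inverse of the larger detection share, here 2.35 for Cyp2e1 with another pericentral gene in the pool, so ratios of differently detected genes are not ranked against each other.

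The 3 periportal pairs lay only slightly over 1. Cyp2f2 with Hal gave 331 cells against 280 expected in the MCD-titled library (1.18) and 383 against 323 in the pool (1.19). Cyp2f2 with Sds gave 1.22 and 1.26, and Hal with Sds 1.29 and 1.24, so that 1 of the 3 pairs was called above in each library, Hal with Sds in the MCD-titled library and Cyp2f2 with Sds in the pool. Hal was found in 53.3% and 47.0% of thinned cells, which limits its ratios to 1.88 and 2.13. The pair without Hal, Cyp2f2 with Sds, had limits of 2.03 and 4.47 and still stood at 1.22 and 1.26.

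Pairs with one gene of each zone were below expectation throughout: 19 of 19 with enough cells in the MCD-titled library, with a median of 0.343, and 21 of 21 in the pool, with a median of 0.473. Cyp2e1 and Cyp2f2 met in 43 cells of the MCD-titled library where 111 were expected, a ratio of 0.39. In the pool they met in 191 cells where 292 were expected, a ratio of 0.65. Oat and Sds shared 1 cell of the MCD-titled library where 15.8 were expected and 66 of the pool where 164 were expected. Glul gave ratios of 0.69 with Cyp2f2 and 0.75 with Hal in the MCD-titled library and of 0.73 and 0.68 in the pool. Glul was the member that other cell types carried most, as described below.

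**Figure D2:**
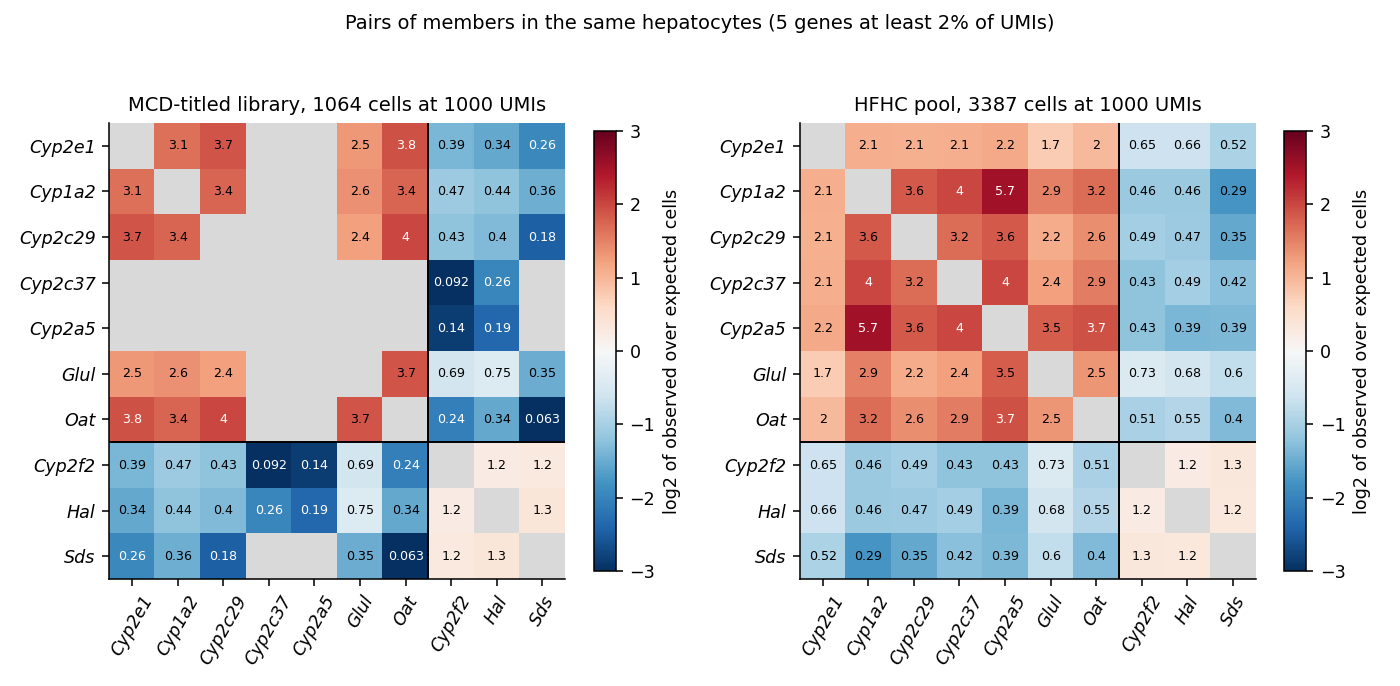
Observed over expected number of cells with a UMI of both genes, printed in each square, for pairs of the 10 genes in hepatocytes of the wider set thinned to 1000 UMIs; colour is the log2 of that ratio, limited to -3 and 3, grey marks the diagonal and pairs with under 10 cells expected, and black lines separate pericentral from periportal genes. Squares with enough cells are all red within the pericentral block and all blue between the zones, and the 3 periportal pairs lie between 1.18 and 1.29 in both libraries.

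By the 5% rule and at 2000 UMIs, 52 cells of the MCD-titled library and 70 of the pool remained, and few pairs could be read. Among cells of the MCD-titled library only the 3 periportal pairs had 10 cells expected, with ratios of 0.92 to 1.08. In the pool no pericentral pair did. Of the 3 pairs across zones that did, Cyp2e1 was below expectation with Hal (11 cells against 16.4) and with Sds (6 against 10.4), and stood at 1.08 with Cyp2f2 (16 against 14.8). Over all gene pairs read there 4.82% were below. At 1000 UMIs the same rule left 166 cells of the pool, where 7 of 7 readable pairs across zones were below expectation, with a median of 0.376, against 8.08% of all gene pairs. The MCD-titled library had 1 readable pair across zones at that depth, Cyp1a2 with Cyp2f2, which was not below (10 cells against 10.3, 0.97). At 500 UMIs the periportal pair Cyp2f2 with Sds was below expectation there (10 cells against 14.2, 0.70). In the pool at 500 UMIs, 3 of 3 readable pericentral pairs were above expectation, with ratios of 2.72 to 3.25. At that depth 5 of 5 readable pairs across zones were below, with ratios of 0.128 to 0.478. The share of all gene pairs was not taken at 500 UMIs.

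The same thinned cells of the wider set were also grouped by Cyp2e1 and Cyp2f2, and the remaining members differed between the groups. The grouping was added after the data were seen. For the members it rests on the same cells and UMIs as the pair ratios above and is not a separate result. In the MCD-titled library 17.0% of cells (interval 14.8 to 19.4%) had a UMI of Cyp2e1 and none of Cyp2f2, 45.3% (42.3 to 48.4%) had Cyp2f2 and no Cyp2e1, 4.04% had both and 33.6% neither. In the HFHC pool Cyp2e1 was the more frequent of the pair, with 36.8% (35.2 to 38.5%) Cyp2e1-only, 14.7% (13.5 to 15.9%) Cyp2f2-only, 5.64% both and 42.8% neither.

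All 6 other pericentral members were at least 2-fold higher in Cyp2e1-only than in Cyp2f2-only cells in both libraries, and both other periportal members at least 2-fold lower. Over all genes whose UMIs in the 2 kinds of cells summed to 20 or more, 5.31% were that much higher and 3.74% that much lower in the MCD-titled library, and 4.67% and 2.78% in the pool. A gene can reach 20 UMIs through the kind of cell where it is high: in the MCD-titled library Cyp2c37 had 30 UMIs in Cyp2e1-only and 1 in Cyp2f2-only cells and Cyp2a5 had 33 and 2, so the count is a description of the members. Glul stood at 32.2 UMIs per 10000 in Cyp2e1-only cells and 0.892 in Cyp2f2-only cells of the MCD-titled library, and at 34.9 and 1.39 in the pool. Oat stood at 9.12 and 0.145 in the MCD-titled library and at 15.6 and 0.805 in the pool. Cyp2c29 was nearly equal in the Cyp2e1-only cells of the 2 libraries, with 11.3 (interval 9.83 to 12.99) and 10.02 (9.47 to 10.6) UMIs per 10000. Glul was found in 33.7% of Cyp2e1-only cells of the MCD-titled library and 35.9% of those of the pool, so in most cells with Cyp2e1 Glul was not detected at this depth.

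Other members differed between the libraries within these cells. Cyp1a2 stood at 8.78 UMIs per 10000 (7.47 to 10.3) in Cyp2e1-only cells of the MCD-titled library and at 3.07 (2.77 to 3.39) in those of the pool. Cyp2c37 stood at 1.66 (1.12 to 2.37) and 3.08 (2.78 to 3.40), and Oat at 9.12 (7.78 to 10.6) and 15.6 (14.9 to 16.3). Hal in Cyp2e1-only cells stood at 1.88 (1.30 to 2.62) in the MCD-titled library and at 4.52 (4.15 to 4.91) in the pool. Sds stood at 0.331 (0.122 to 0.722) and 1.31 (1.12 to 1.53). At 2000 UMIs, with 31 and 553 Cyp2e1-only cells, Cyp1a2 stood at 5.81 and 2.95 and Oat at 4.52 and 14.4. Cyp2c37 stood there at 2.10 (1.12 to 3.59) and 2.78 (2.47 to 3.10), and its intervals overlap. Glul stood there at 24.7 (20.9 to 28.9) and 32.6 (31.5 to 33.7). These are UMIs summed over cells of 1 library each, and no share of all genes was set beside them.

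Cells in which neither gene was detected resembled Cyp2f2-only cells in Hal and Sds. Hal stood at 11.3 UMIs per 10000 in Cyp2f2-only cells and at 11.0 in cells with neither gene in the MCD-titled library, and at 10.9 and 10.7 in the pool. Sds stood at 2.51 and 2.40 in the MCD-titled library and at 4.43 and 3.74 in the pool. In cells with both genes Glul stood at 5.81 UMIs per 10000 in the MCD-titled library and at 14.1 in the pool, and Oat at 1.40 and 6.34. Hal stood at 6.28 in both libraries, and Sds at 1.40 and 2.25. These values lie between those of Cyp2e1-only and Cyp2f2-only cells. Cyp2c37 had 0 UMIs in the 43 cells with both genes of the MCD-titled library, with an upper limit of 0.858 UMIs per 10000.

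**Figure D3:**
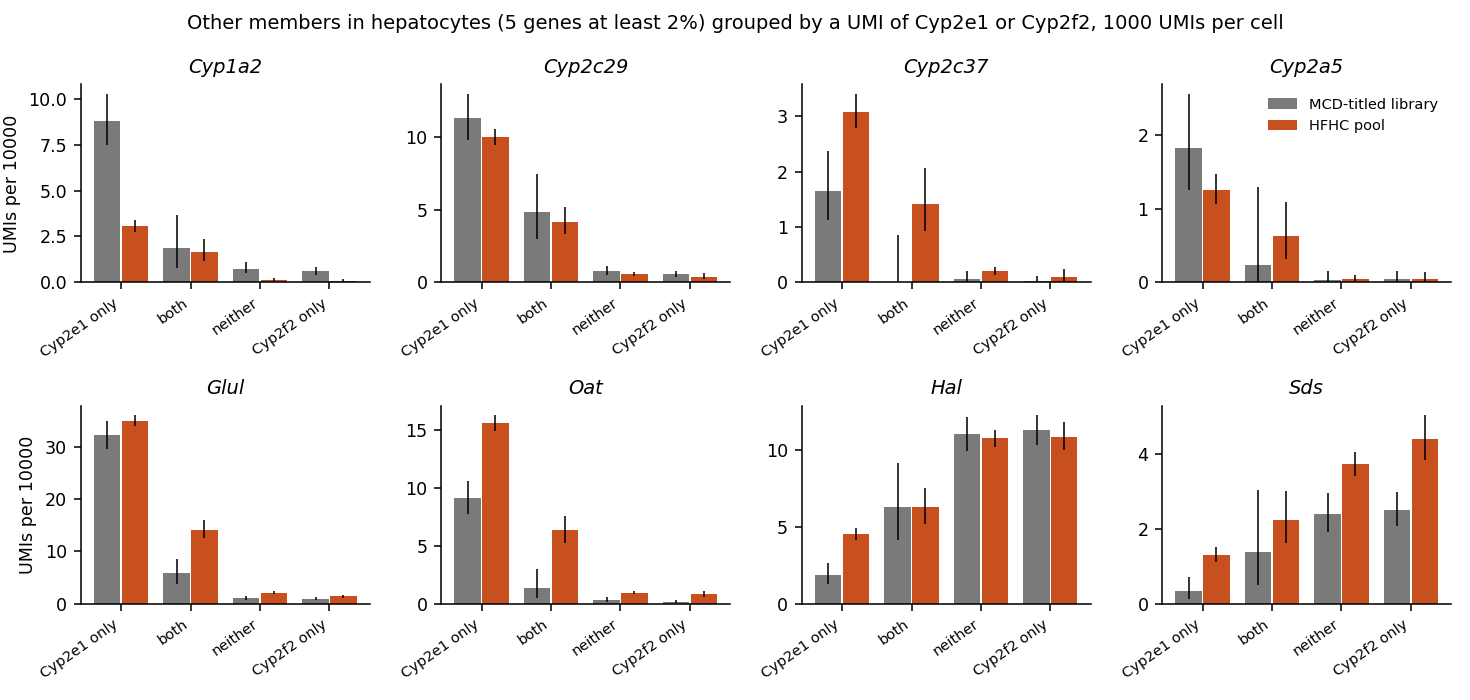
UMIs per 10000 of the 8 members other than Cyp2e1 and Cyp2f2 in hepatocytes of the wider set thinned to 1000 UMIs and grouped by whether they had a UMI of Cyp2e1 only, of both genes, of neither or of Cyp2f2 only; bars are sums over cells and error bars exact Poisson 95% intervals. The 6 pericentral genes are highest in Cyp2e1-only cells in both libraries (Glul 32.2 and 34.9), and Hal and Sds are lowest there.

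Cells were also ordered by the share of Cyp2f2 in the sum of Cyp2e1 and Cyp2f2, in 5 equal bins, among cells with at least 5 UMIs of the pair at 2000 UMIs. By the 5% rule 16 and 19 cells could be ordered, too few for any bin of 20 cells. The wider set in the pool gave 358 cells, 312 of them in the bin with least Cyp2f2 and only 19, 12, 8 and 7 in the others, so that no gradient between the zones could be read.

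Between the libraries, the sum over all hepatocytes also differed. The median mitochondrial share of hepatocytes by the 5% rule was 3.91% in the MCD-titled library and 0.556% in the pool. In the wider set it was 1.33% and 0.368%, and its part in the ratios was not tested. By the 5% rule, 5 of the 6 pericentral members whose UMIs in the libraries summed to 100 or more were at least 2-fold higher in the HFHC pool, and 1 of 3 periportal members at least 2-fold lower. Over all 1670 genes with that many UMIs, 5.63% were 2-fold higher and 4.85% 2-fold lower. Genes low in one library pass this filter through the other, as did Cyp2c37 with 8 and 121 UMIs and Oat with 12 and 206, so the count describes the members and supports nothing further. Cyp2e1 stood at 133 CPM (104 to 167) in the MCD-titled library and 1623 CPM (1520 to 1731) in the pool, a log2 ratio of 3.59. Glul stood at 128 and 845 CPM (log2 ratio 2.71), Cyp2c29 at 76.5 and 596 CPM (2.93), Oat at 21.9 and 360 CPM (3.93) and Cyp2c37 at 14.6 and 212 CPM (3.70). Cyp1a2 was the exception, with 135 CPM (106 to 169) and 171 CPM (139 to 209). Cyp2a5 had only 5 and 34 UMIs and was not compared.

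Cyp2f2 stood at 1479 CPM (1379 to 1585) in the MCD-titled library and 600 CPM (538 to 667) in the pool, a log2 ratio of -1.30. Hal stood at 834 and 638 CPM and Sds at 208 and 227 CPM, neither 2-fold apart. Of the 3 periportal genes only Cyp2f2 was thus past 2-fold. Without the filter on genes and mitochondrial share the log2 ratio of Cyp2f2 was -0.59, no longer past 2-fold, while that of Cyp2e1 was 2.70, that of Glul 1.69 and that of Cyp1a2 -0.40.

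In the wider set the differences of the pericentral members were smaller, save for Cyp1a2. Those of 3 of 7 members reached 2-fold: Cyp2e1 (639 and 1620 CPM, log2 ratio 1.34), Oat (237 and 683 CPM, 1.53) and Cyp2c37 (39.1 and 143 CPM, 1.87). Over all 8189 genes compared there, 5.89% were 2-fold higher and 5.64% 2-fold lower. Glul stood at 916 and 1523 CPM (0.73), Cyp2c29 at 285 and 405 CPM (0.51) and Cyp2a5 at 40.2 and 54.3 CPM (0.43). Cyp1a2 now lay on the other side, with 225 CPM (210 to 241) in the MCD-titled library and 131 CPM (125 to 138) in the pool, a log2 ratio of -0.78. Cyp2f2 kept its difference, with 741 and 252 CPM (-1.56), and Hal (906 and 805 CPM, -0.17) and Sds (200 and 277 CPM, 0.47) again stayed under 2-fold.

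The size of these differences depended on the share of the 5 genes at which cells were taken, most for the pericentral genes. In cells with a share of 2 to 3% the log2 ratio of Cyp2e1 was 0.51 and that of Glul 0.01, and at 5 to 7% they were 3.79 and 3.12. Cyp2c29 differed in direction between bands, with 3.27 at 5 to 7% but -0.41 at 2 to 3% and -0.70 at 1 to 2%, and Glul stood at -0.96 at 1 to 2%. Endothelial markers stood at 9.45 UMIs per 10000 in the MCD-titled library and 11.2 in the pool at 1 to 2%. At 5 to 7% they stood at 1.32 and 1.77, and their part in these ratios was not tested. Cyp1a2 went from 0.60 at 5 to 7% to -1.55 at 2 to 3% and -2.52 at 1 to 2%. For Cyp2f2 the ratio was -0.33 at 1 to 2%, under 2-fold, -1.01 at 2 to 3%, -1.91 at 5 to 7% and -0.88 at 10 to 20%. The highest band held only 6 cells of the MCD-titled library with 9 UMIs of Cyp2f2, so whether its ratio was under 2-fold cannot be read. A choice of cells by 6 hepatocyte genes outside the rule (Serpina1c, Apob, Ahsg, Trf, Fgb and Hpx, together at least 1% of UMIs), added after the data were seen, gave 1.32 for Cyp2e1, 0.50 for Glul and -1.38 for Cyp2f2.

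**Figure D4:**
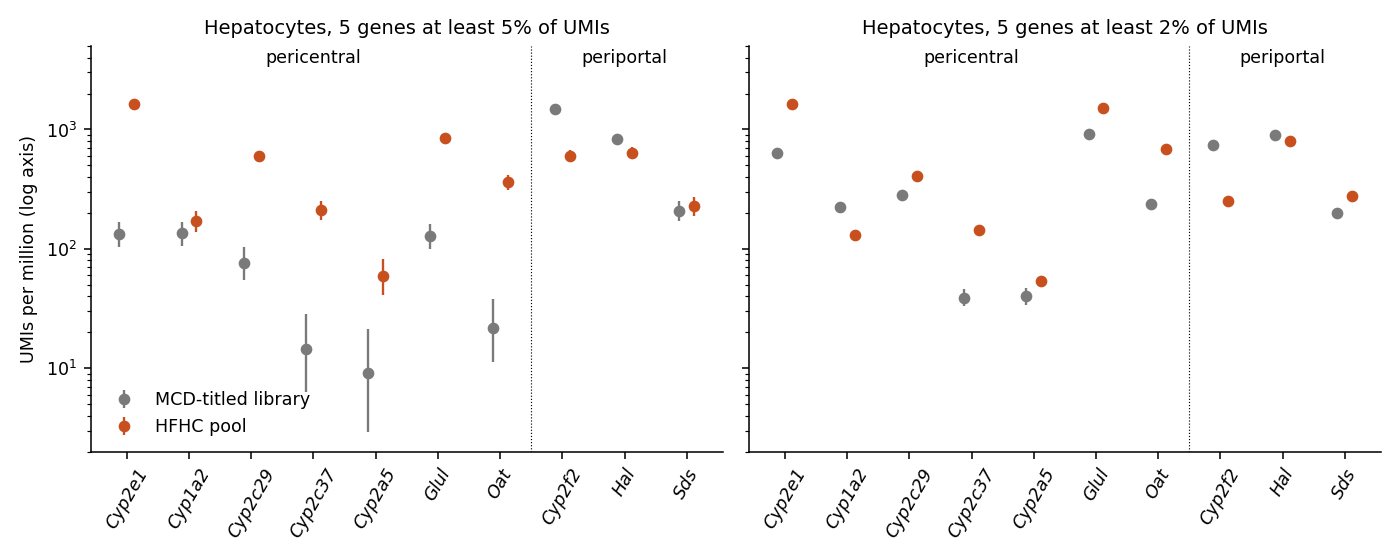
CPM, UMIs per 1000000, on a log axis, of the 10 genes summed over hepatocytes of each library, by the 5% rule (left) and the wider 2% rule (right); bars are exact Poisson 95% intervals and the dotted line separates pericentral from periportal genes. Cyp2e1 stands at 133 and 1623 on the left and at 639 and 1620 on the right, while Cyp2f2 is higher in the MCD-titled library in both.

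Of 24 further pericentral and 22 further periportal genes on a list of zonated genes, 7 and 18 had at least 100 UMIs by the 5% rule. Among the 7 pericentral genes 5 were at least 2-fold higher in the pool and none at least 2-fold lower, against 5.63% and 4.85% of all genes. Their median log2 ratio was 1.11 against 0.12 over all genes (0.11 in the wider set), so that ratios include a small common shift. Gstm1 (1.11) and Cyp3a11 (1.09) are past 2-fold by less than this shift. Cyp2c50 with 40 and 247 UMIs and Gstm3 with 30 and 107 pass the filter through the pool. The list was also chosen with earlier results of these data known, so the count only describes these genes. The 3 highest were Cyp2c50 (72.9 and 432 CPM, 2.54), the calcium-binding Rgn (279 and 1030 CPM, 1.88) and the glutathione transferase Gstm3 (54.7 and 187 CPM, 1.74). The 3 lowest were Cyp27a1 of bile acid synthesis (117 and 66.5 CPM, -0.80), Gsta3 (2130 and 1915 CPM, -0.15) and Cyp3a11 (494 and 1055 CPM, 1.09).

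Among the 18 periportal genes 2 were at least 2-fold higher in the pool and 6 at least 2-fold lower, against 5.63% and 4.85% of all genes. Their median log2 ratio was -0.70. Here too genes can pass the filter through 1 library, as did G6pc with 114 and 30 UMIs and Apoa4 with 33 and 179, so the counts are descriptions. The 3 lowest were the gluconeogenic Pck1 (2778 and 661 CPM, -2.07), the tyrosine aminotransferase Tat (1893 and 458 CPM, -2.04) and G6pc, which releases glucose (208 and 52.5 CPM, -1.95). The 3 highest were Apoa4 (60.1 and 313 CPM, 2.35), Hsd17b6 (107 and 247 CPM, 1.18) and Hsd17b13 of lipid droplets (344 and 366 CPM, 0.09). The 5 genes of the urea cycle on the list ranged from Asl (793 and 394 CPM, -1.01) and Ass1 (3731 and 2100 CPM, -0.83) to Arg1 (-0.30), Cps1 (-0.21) and Otc (-0.08), and were named after their values were seen. In the wider set 4 of 19 pericentral genes and 2 of 22 periportal genes were at least 2-fold higher, against 5.89% of all genes. There 0 and 7 were at least 2-fold lower, against 5.64% of all genes.

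The same lists were compared between the kinds of cells. Among the further pericentral genes 12 of 12 with at least 20 UMIs were at least 2-fold higher in Cyp2e1-only than in Cyp2f2-only cells of the MCD-titled library, and 17 of 19 in the pool, where Gsta3 and Gstm1 stayed under 2-fold, against 5.31% and 4.67% of all genes. These genes too can reach 20 UMIs through the kind of cell where they are high, so the counts are descriptions. Gulo, an enzyme of ascorbate synthesis, gave log2 ratios of 4.15 and 5.09. Among the further periportal genes 9 of 20 were at least 2-fold lower in the MCD-titled library and 9 of 21 in the pool, against 3.74% and 2.78% of all genes, and none was 2-fold higher. Pck1 and Tat, which in the wider set stood at -1.97 and -1.68 between the libraries, were under 2-fold apart between these cells, with log2 ratios of -0.36 and -0.08 in the MCD-titled library and -0.58 and -0.27 in the pool. Hsd17b13, at -2.61 and -1.46, was past 2-fold between the cells of both libraries and at -0.53 between the libraries in the same wider set (0.09 by the 5% rule). These genes were named after their values were seen.

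Genes whose counts went along with a member's across thinned cells were found by Spearman's rho, ranked by the smaller of the 2 libraries' values among genes in at least 5% of cells of both. In the 52 and 70 cells of the 5% rule at 2000 UMIs, Cyp2e1 was most like Cyp2c50 (0.58 in the MCD-titled library and 0.70 in the pool), Gulo (0.87 and 0.52) and Cyp2c67 (0.74 and 0.47). Cyp2c29 led with Gulo (0.87 and 0.78), then Cyp2c50 and Cyp2c67, and Cyp1a2 with Gulo (0.66 and 0.45), then Cyp2c67 and Cyp2c50. Only 4 of the 52 cells of the MCD-titled library had a UMI of Cyp2e1, 4 one of Cyp2c29 and 7 each one of Cyp1a2 and Glul, so these values there rest on a handful of cells. Cyp2f2 went along with mt-Nd2 (0.41 and 0.43), Mup3 (0.38 and 0.48) and Hsd17b6 (0.61 and 0.38), Hal with Hsd17b6 (0.29 and 0.36), Pigr and Ndrg2, and Sds with Tent5c (0.37 and 0.31), Anxa11 and Tkfc. Glul led with Usp1 (0.39 and 0.36), Ywhag and Smyd2, and Cyp2c37, Cyp2a5 and Oat were in under 5% of cells of one library. In the wider set at 1000 UMIs Rgn led for Cyp2e1 (0.57 and 0.51) and Gulo for Glul (0.29 and 0.24), and Oat went along with Aldh3a2 (0.41 and 0.39). Cyp2f2 went along with Alb (0.42 and 0.14), a gene of the hepatocyte rule. The cells of a library share their depth and their library, and these values carry no test.

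The members were not equally particular to hepatocytes. Classes of other cells were set by marker genes, and shares are given after thinning to 1000 UMIs, beside those of B and T cells, which should lack the cytochrome P450 enzymes of hepatocytes. Cyp2e1 was found in 21.1% of hepatocytes of the wider set in the MCD-titled library against 2.75% of B cells and 1.66% of T cells, and in 42.5% against 4.87% and 4.17% in the pool. A share of cells with Cyp2e1 at the level of B and T cells is not read as expression. Before thinning, 3.52% of B cells and 2.81% of T cells of the MCD-titled library and 10.7% and 9.12% of those of the pool had a UMI of Cyp2e1, at median depths of 1330, 1915, 2769 and 3428 UMIs, and 20.1% and 45.1% of hepatocytes at 566 and 906.5. Cyp2f2 was found in 49.3% of hepatocytes and 1.99% of B cells of the MCD-titled library, and in 20.3% and 1.69% in the pool. Per 1000 UMIs of the 5 hepatocyte genes, Cyp2e1 had 17.7 UMIs in hepatocytes, 35.8 in B cells and 28.4 in T cells of the MCD-titled library, and 52.3, 52.9 and 65.3 in the pool.

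Glul had another pattern. Per 1000 UMIs of the 5 hepatocyte genes in the MCD-titled library, Glul had 25.4 UMIs in hepatocytes, 198 in B cells, 175 in T cells and 958 in Kupffer cells, and Oat 6.58, 59.9, 49.0 and 92.0. The source of the UMIs in other cells was not tested. Glul was found in 12.5% of hepatocytes and 15.6% of B cells of the MCD-titled library, and in the pool in 20.6% of hepatocytes and 12.8% of B cells. Its summed level in the MCD-titled library was 916 CPM in hepatocytes against 232 CPM in B cells and 151 CPM in T cells. Kupffer cells, the resident macrophages of the liver, carried Glul at 870 CPM and in 54.1% of cells in that library, and at 633 CPM and in 40.5% in the pool. Endothelial cells carried it at 873 CPM and in 51.1% of cells, and at 570 CPM and in 34.5%. Oat was also less particular, with 8.74% of hepatocytes, 8.05% of Kupffer cells and 6.82% of B cells in the MCD-titled library, and 21.6%, 9.78% and 8.69% in the pool. Its summed level in the MCD-titled library was 237 CPM in hepatocytes, 83.6 CPM in Kupffer cells and 70.2 CPM in B cells. In the pool Cyp2e1 was found in 17.3% and Hal in 13.6% of endothelial cells, against 4.87% and 4.66% of B cells, and their share of UMIs in the 5 hepatocyte genes was 0.546% against 0.185% in B cells. The part of hepatocyte RNA in these endothelial values was not tested.

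**Figure D5:**
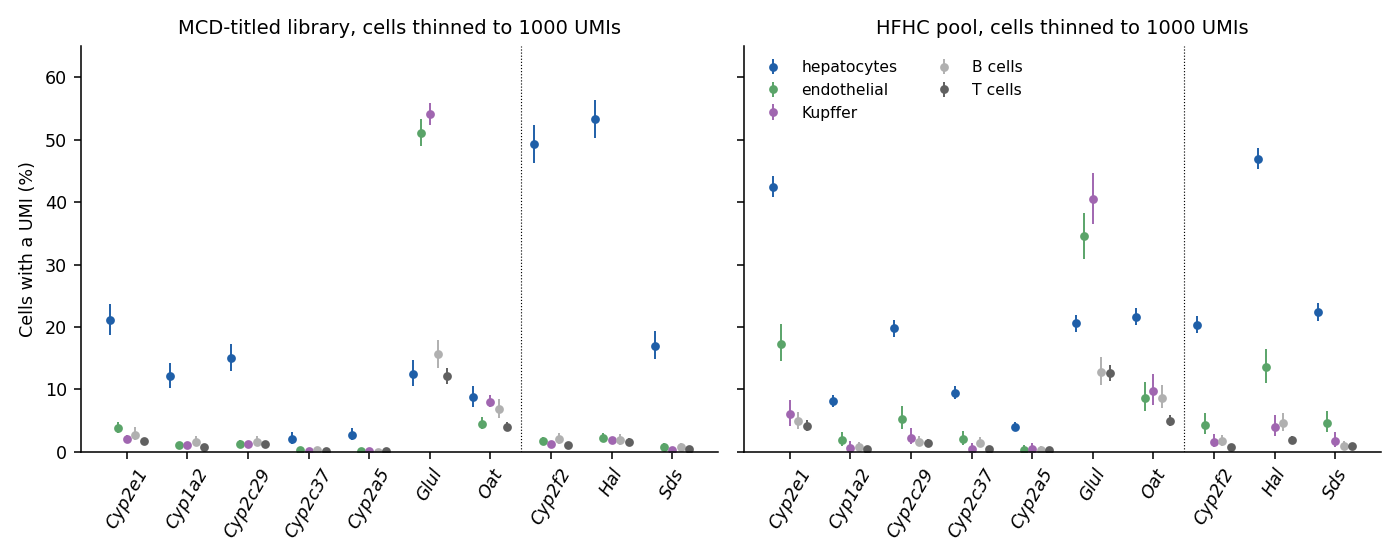
Share of cells with a UMI of each gene after thinning to 1000 UMIs, in hepatocytes of the wider set and in 4 other cell classes set by marker genes; bars are exact binomial 95% intervals. Most members lie far higher in hepatocytes than in B and T cells, while Glul is found in 54.1% of Kupffer cells and 51.1% of endothelial cells of the MCD-titled library against 12.5% of its hepatocytes.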

How the data were processed

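Single liver cells of mice were measured in 2 libraries, 1 per group. Per the file headers, the deposited counts came from the BD Rhapsody pipeline 1.10.1 on GRCm38 and GENCODE vM19, run by the authors, as error-corrected molecules (UMIs) per cell and gene, not normalized; alignment settings are not given in the sources used here. The sample tag library was not used here. Cells were kept by the study's limits on genes and mitochondrial share alone, and the members and lists were chosen with earlier results of these data known. UMIs were summed over hepatocytes, expressed as CPM, and library ratios (log2, 1 UMI added to each sum) were taken for genes with 100 or more UMIs over the libraries. Cells were thinned without replacement to 500, 1000, 2000 or 4000 UMIs with a fixed seed (Python 3.11.15, numpy 2.4.6, scipy 1.17.1). Doublets were called with Scrublet (scanpy 1.11.5), which marked 8.42% and 1.99% of kept cells but none by the 5% rule, and were kept except in an alternative. A cell of another type took the class with most marker UMIs, at least 3 of at least 2 markers. Named genes are the members, the 3 highest and 3 lowest further zonated genes of each list, and for each member the 3 genes most like it. Ratios and co-detection were tested on simulated data with known answers. The alternatives covered filters, the hepatocyte rule, doublets, scaling, depth, minimum UMIs and thresholds. The 2% rule, its alternatives and the grouping by Cyp2e1 and Cyp2f2 were added after the data were seen.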

Additional observations from a re-analysis of the deposited data

How the results depend on the processing

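No paired analysis was possible because each group holds 1 library, and the values describe 2 libraries, not diets or genotypes. Hepatocytes by the 5% rule numbered 569 in the MCD-titled library and 507 in the HFHC pool; a 10% rule left 6 and 28 and a 20% rule 0 and 0, no UMI of other cell types' markers left 329 and 309, and no filter on cells gave 992 in the MCD-titled library. Of the members, 5 were 2-fold higher and 1 lower in the pool. At 10% these were 0 and 0, in the wider set 3 were higher, thinning to 2000 UMIs left 1 higher, and without the filter on cells 0 were lower. The further pericentral genes higher in the pool went from 5 to 0 at 10%, 2 when thinned, 9 at a minimum of 20 UMIs, 3 without the filter and 3 when scaled by the median gene ratio, and 1 was lower at 1.5-fold. The further periportal genes higher went from 2 to 0 at 10%, 0 when thinned and 1 without other cells' markers, and those lower from 6 to 0 at 10%, 3 when thinned and 3 without the filter. How many further genes still reached the minimum of UMIs under each alternative is not given here, so a lower count need not be a smaller difference.

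By the 5% rule at 2000 UMIs, 2 pairs of opposite zones were below expectation in the pool; this was 0 at the 10% rule, at 4000 UMIs, without other cells' markers and without the top 10% of cells by UMIs, 1 with another seed, with limits of 1.5 and 0.67, at 10% mitochondrial UMIs and without the filter, 7 at 1000 UMIs, and 21 and 18 in the wider set at 1000 and 2000 UMIs. At 4000 UMIs 16 cells of the pool were left, and the 10% rule left 28 before thinning, so few pairs could reach 10 cells expected there. Pairs of the same zone above expectation were 0 in the pool, 2 at 1000 UMIs and 1 without the filter. In the wider set they were 22 and 21. In the MCD-titled library both counts were 0, and only the 3 periportal pairs had 10 cells expected. The wider set of that library gave 11 pairs of the same zone at 1000 UMIs. It gave 19 and 14 of opposite zones at 1000 and 2000 UMIs. With the wider set at 1000 UMIs as the base, the counts of the pool stayed within 1.5 times under every alternative run. In the MCD-titled library the 11 pairs became 0 with a 3% rule and at 2000 UMIs, where no pericentral pair had 10 cells expected, and 3 without other cells' markers, and the 19 pairs became 12 there. Members higher in the pool went from 3 to 6 with a 3% rule and members lower from 1 to 2 with a 1% rule. The further pericentral genes higher went from 4 to 2 with a 1% rule, 9 with a 3% rule, 2 when scaled by the median and 2 without the top 10% of cells by UMIs. The cause of these changes was not tested. The bins of the Cyp2f2 share had no value by the 5% rule, and their alternatives gave none either. Median depths of 566 to 906.5 UMIs left most cells of either set below 1000 UMIs.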
